A study of Arabidopsis thaliana with 4 samples.

Results

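Wild-type Arabidopsis thaliana seedlings carrying the transgene 35S::BoEMF2.1, named transWT, were compared with seedlings of the Columbia wild type (WT) on 1 Affymetrix array each, which are 2 of the 4 arrays of the series. The other 2 arrays held emf2 mutant seedlings and rescued emf2, the mutant with the same transgene, and are used here as a second transgene pair. Whole seedlings were 7 days old and had grown at 21 °C in days of 8 h light and 16 h dark. The transWT and rescued emf2 plates held hygromycin at 20 mg/mL, as the labels give it, whereas the WT and emf2 plates had none, so transgene and drug cannot be told apart. The labels name no transgenic line, no number of lines and no number of seedlings per array. All 22746 probe sets that are not array controls, of 22810, make up the comparison. Each group is 1 array, so no difference between transWT and WT has a replicate check, an SD or a p-value of its own, and precision is limited by having so few arrays.

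EMF2 belongs to the Polycomb repressive complex 2, an enzyme assembly that places a repressive methyl mark on histone H3 and keeps floral programmes silent while a seedling grows leaves. BoEMF2.1 is a gene of Brassica oleracea named after it, and the 35S promoter of a plant virus drives expression in nearly all tissues. Hygromycin is an aminoglycoside that blocks the ribosome, and a resistance gene carried with a transgene lets transformed seedlings grow on it. The arrays do not report the transcript of the transgene here, and EMF2 has no probe set named here, so the labels were not checked by either gene.

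Signal is the brightness of a probe set on a linear scale, made equal in mean on all arrays. The floor is a signal of 87.6, below which values were set to it. A difference is called where the ratio is at least 2-fold and the brighter array is above the floor. Where the dimmer array was below the floor the ratio is a bound and is written "at least". In transWT over WT 567 probe sets were called higher (3.88% of 14620 tested) and 778 lower (5.32%), 9.2% in all, and 92 and 87 of them differed at least 4-fold (0.629% and 0.595%). One probe set was kept for each of 13355 named genes. Of 7800 such genes tested, 270 were higher (3.46%) and 394 lower (5.05%), and 8.51% in all. These shares are the background given for the list counts below. Most lists were matched by gene symbol or synonym, and genes with a symbol of their own were called more often. Of 1117 tested genes with a symbol, 59 were higher and 70 lower, so the background is a low one for such lists. In rescued emf2 over emf2, called the mutant pair below, 5.85% of probe sets were higher and 4.97% lower, 10.8% in all, and of named genes 5.17% and 4.61%, 9.78% in all. In bulk seedlings, a change in the share of a tissue and a change of RNA per cell cannot be told apart.

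The arrays differed in ways that touch these counts. With each array scaled to its median the split was 804 higher and 529 lower, against 698 and 653 after quantile normalization and 709 and 604 after cyclic loess. The median log2 ratio over probe sets tested moved from -0.07 to 0.08 with median scaling, a shift that ratios of signals above the floor share and that bounds do not. Where both signals exceeded the floor, the median log2 ratio was 0.14 in the brightest of 10 equal classes of mean signal and between -0.19 and -0.02 in the others. Poly-A control RNAs were 1.92-fold brighter on the transWT array than on the WT array, by the median of 7 probe sets, and hybridization controls 1.21-fold, by the median of 18. The ratio of 5′ to 3′ signal of actin was 0.519 in WT and 0.399 in transWT. In 43 genes that several probe sets measured above the floor throughout, the 2 brightest probe sets of a gene were compared. Their disagreement gave an error in log2 ratio of 0.33 (SD) for a single probe set, which holds no variation between plantings. Tissue markers did not separate the arrays by 2-fold: all 3 tested root markers and all 6 tested leaf and stomata genes lay within it. The root markers went both ways. PYK10, a root beta-glucosidase, read 15178 in WT and 17842 in transWT. EXPA7 read 262 and 189 and EXPA18 335 and 251, with a list median log2 ratio of -0.42. In the mutant pair 2 of the 3 root markers were lower past 2-fold. The named seed genes (OLEO3 and PAP85) and anther genes (AMS and ATA27) were below the floor on both arrays. The part of any of these values in a result below was not tested.

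Among the largest differences of genes with a symbol were those of CP1, PPDK and COR15B. CP1, a papain-like cysteine protease, read 263 in WT and 3667 in transWT, 14-fold higher, and it read 118 in emf2 and 1428 in rescued emf2. PPDK, the pyruvate orthophosphate dikinase that makes phosphoenolpyruvate from pyruvate, read 158 in WT and 1306 in transWT, with 552 in emf2 and 2572 in rescued emf2. COR15B, a cold-induced chloroplast protein, read 1354 in WT and 60.6 in transWT, at least 15.5-fold lower, and 447 against 69.9 in the mutant pair. On all 3 genes both transgenic arrays lay on the same side of both arrays without the transgene.

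**Figure D1:**
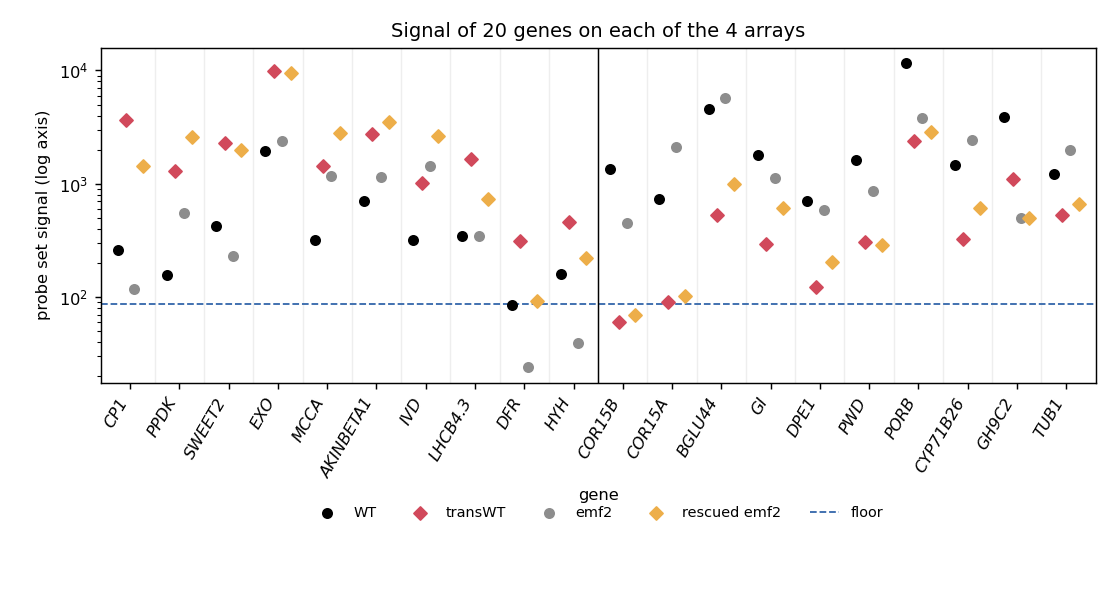
Probe set signal (log axis) of 20 genes on the WT, transWT, emf2 and rescued emf2 arrays, 1 array a group, with the floor as a dashed line. The 10 genes left of the solid line were higher in transWT than in WT and the 10 on the right were lower, from CP1 (263 and 3667) to TUB1 (1220 and 526).

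Genes of energy starvation and amino acid breakdown were read first. When sugar runs short, plants turn to branched-chain amino acids and other protein-derived carbon for respiration, and the kinase SnRK1 is a central regulator of this switch. Of 9 named members of this list all were tested, 4 were at least 2-fold higher in transWT and 0 were lower, with a median log2 ratio of 0.93 against -0.08 over all named genes. MCCA, a subunit of the methylcrotonyl-CoA carboxylase of leucine breakdown, read 318 in WT and 1449 in transWT (4.55-fold). IVD, the isovaleryl-CoA dehydrogenase one step earlier, read 322 and 1021 (3.17-fold). AKINBETA1, a beta subunit of SnRK1, read 709 and 2724 (3.84-fold). ETFQO, which passes electrons from IVD to the respiratory chain, read 181 and 343, a log2 ratio of 0.93, and MCCB, the partner subunit of MCCA, 674 and 1139 (0.76). ETFQO was past 2-fold after quantile normalization, cyclic loess and median scaling, which count 5 of 9 genes. D2HGDH, at 351 and 347, was the only member not brighter in transWT. In the mutant pair MCCA, AKINBETA1 and PPDK were also at least 2-fold higher, whereas IVD lay within 2-fold, at 1428 in emf2 and 2617 in rescued emf2. MCCA read 1168 in emf2 and 2811 in rescued emf2. For MCCA, IVD and PPDK the WT array was at least 2-fold below every other array, emf2 included. For AKINBETA1, at 1150 in emf2, it was not.

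Several other catabolic genes were picked by their values. AAH, the allantoate amidohydrolase of purine breakdown, read 339 in WT and 1146 in transWT, and 377 in emf2 and 780 in rescued emf2. MGL, methionine gamma-lyase, read 164 and 480 in the wild-type pair and 162 and 596 in the mutant pair. ASPGB1, an asparaginase, read 96.4 and 240, against 99.3 and 218. GAT1_2.1, a glutamine amidotransferase, was 4.26-fold higher in transWT (188 and 800) and within 2-fold in rescued emf2 over emf2 (601 and 1168). AAH, MGL and ASPGB1 were past 2-fold in both pairs. ICL is the isocitrate lyase of the glyoxylate cycle and was held in the list named mitochondrial metabolism. Of the 18 tested genes of that list it alone was past 2-fold. ICL read 445 in WT and 1167 in transWT, but 1801 in emf2 and 1108 in rescued emf2.

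Autophagy delivers cell contents to the vacuole, and ATG8 proteins coat the membrane that encloses them. All 11 named autophagy genes were tested, 10 of them lay within 2-fold and 1 was higher, and their log2 ratios ran from 0.14 to 1.13 with a median of 0.43. ATG8E was the one past 2-fold, with 1234 in WT and 2707 in transWT. ATG8F read 3188 and 4720, and APG8H 2665 and 2931. The median of the same genes in rescued emf2 over emf2 was -0.06. Of 7 tested genes of the senescence and protease list, CP1 and SAG29 were higher and 0 lower. SAG29, the sugar transporter SWEET15, read 49.4 in WT and 257 in transWT, at least 2.93-fold. The vacuolar processing enzymes GAMMA-VPE (2606 and 3547), BETA-VPE (247 and 174) and ALPHA-VPE (56.5 and 102) were not past 2-fold, and neither was the senescence factor WRKY53 (459 and 401).

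Sugar transport and starch genes went both ways, with 2 higher and 2 lower of 12 tested, SAG29 being one of the former. SWEET2, a sugar transporter, read 423 in WT and 2275 in transWT, 5.38-fold higher, and 232 against 1996 in the mutant pair. DPE1, the plastid disproportionating enzyme that processes short glucans from starch, read 701 in WT and 123 in transWT, 5.71-fold lower, and 586 against 205 in the mutant pair. PWD, phosphoglucan water dikinase, opens the starch granule for breakdown and was singled out after its value was seen: it read 1624 and 305, 5.33-fold lower, and 862 and 287 in the mutant pair. TMT2, a tonoplast sugar carrier, read 820 and 387, and was within 2-fold with median scaling (-0.92). The other SWEET genes tested, SWEET1, SWEET11, SWEET13, SWEET16 and SWEET17, had log2 ratios between -0.50 and 0.23.

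Every cold and dehydration gene past 2-fold was lower in transWT. COR and dehydrin proteins protect membranes and enzymes when cells lose water, and several of their genes are also under the clock. Of 9 tested members 4 were lower and 0 higher, with a median log2 ratio of -0.74. COR15A, the tandem partner of COR15B, read 739 in WT and 90.8 in transWT (8.13-fold lower) and 2128 in emf2 against 103 in rescued emf2. The dehydrins COR47 (8683 and 3805) and LTI30 (6232 and 2682) were 2.28-fold and 2.32-fold lower, and both lay within 2-fold in the mutant pair. AT1G54410, the dehydrin HIRD11, outside the list and picked by its value, read 10267 and 2320, 4.43-fold lower. COR27, a cold- and clock-regulated gene, read 146 and 38.1 and has only a bound (at least 1.67-fold). LEA4-5, a late embryogenesis protein, at 69.2 and 152, and the zinc finger gene STZ, at 3486 and 5115, were brighter in transWT but not called. Of the clock list only GI, XCT and TIC were named. GI, which links the clock to flowering, read 1797 in WT and 294 in transWT (6.12-fold lower), with 1131 in emf2 and 613 in rescued emf2. XCT, a clock regulator, read 208 and 89.4 (2.32-fold lower), and TIC 759 and 565, within 2-fold. CCL, whose transcript decays under control of the clock, was singled out after its value was seen and read 11031 in WT and 3893 in transWT, but 14389 and 11116 in the mutant pair. The labels give no hour of harvest.

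**Figure D2:**
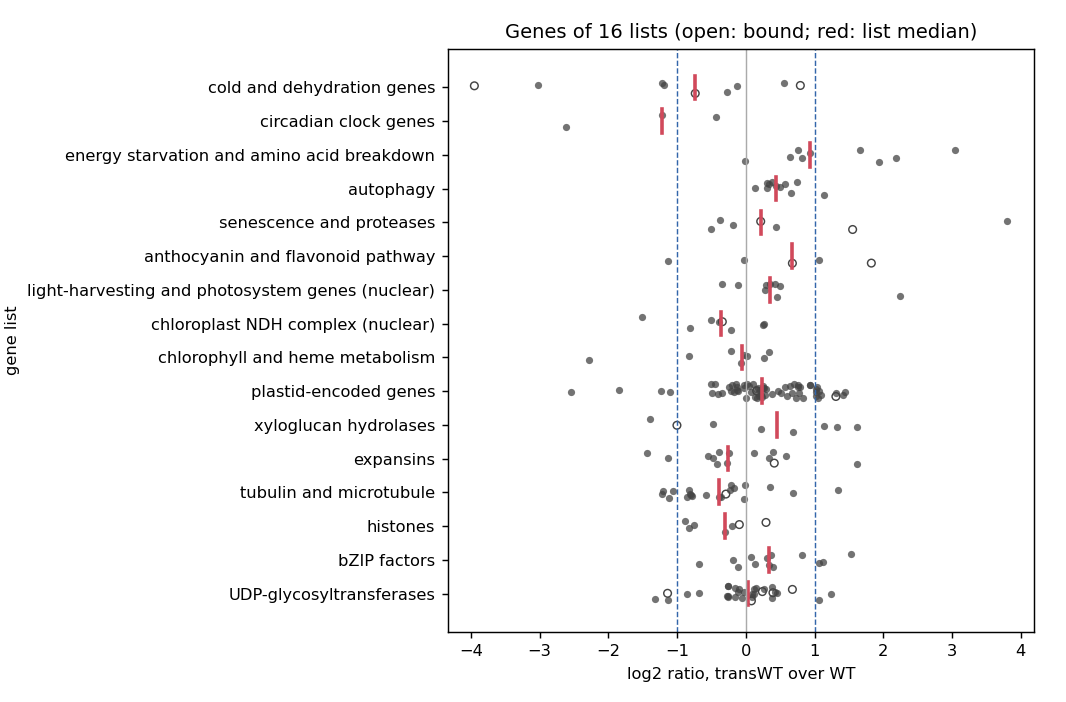
Log2 ratio of transWT over WT for the tested genes of 16 gene lists, 1 point a gene. Open points are bounds, red bars list medians and dashed lines mark 2-fold. The energy starvation list has its median at 0.93 and the cold and dehydration list at -0.74, while most lists have theirs within 0.5 of 0.

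Most tested photosynthesis genes of the nucleus differed by less than 2-fold between WT and transWT. Of 9 tested light-harvesting and photosystem genes 1 was higher and 0 lower. That gene was LHCB4.3, a minor antenna protein of photosystem II, at 347 in WT and 1641 in transWT (4.73-fold), with 346 in emf2 and 736 in rescued emf2. Its relatives LHCB4.1 (18116 and 22198) and LHCB4.2 (14945 and 21047) were within 2-fold. The list median was 0.36 and turned to -0.02 after quantile normalization, and every member except LHCB4.3 lies in the brightest class, whose median was 0.14. The Calvin cycle genes RCA (16006 and 25436), SBPASE (8341 and 10495) and PRK (11646 and 11755) lay within 2-fold. In chlorophyll synthesis PORB, the light-dependent protochlorophyllide oxidoreductase, read 11619 in WT and 2390 in transWT, 4.86-fold lower. The other 7 tested genes of its list lay within 2-fold. The emf2 and rescued emf2 arrays, at 3820 and 2890, were also below WT for PORB, and their ratio was within 2-fold.

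Nuclear genes for building the chloroplast included several with lower signal in transWT, named after their values were seen. CRR21, an RNA-editing factor for a plastid NDH transcript, was the only one of 8 tested genes of the NDH list past 2-fold (615 and 216, 2.84-fold lower). OTP84, another editing factor, read 214 and 84.6, at least 2.44-fold lower, and CFM3A, a plastid splicing factor, read 391 and 119. PAC, needed for plastid development, read 186 and 52.6, and PAM68, a photosystem II assembly factor, 891 and 420. On the emf2 and rescued emf2 arrays these genes read less than in WT as well: OTP84 120.3 and 48.1, CFM3A 102 and 99.3, PAC 71.3 and 43.7, and PAM68 404 and 358. Higher in transWT were LrgB, the chloroplast carrier of photorespiratory glycolate and glycerate (2972 and 6439), and Z-ISO, an isomerase of carotenoid synthesis (615 and 1457).

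Of 69 plastid-encoded genes named on the array 66 were tested, 11 were higher in transWT and 4 lower. Their median log2 ratio was 0.23. In the mutant pair 29 of 60 tested were higher and 1 lower, with a median of 0.88. Quantile normalization and cyclic loess left 7 of them higher and 4 lower, and median scaling gave 13 and 3. The 4 lower genes, rpl36, rpl14, rpl22 and rpoA, all belong to the gene cluster from rpl23 to rpoA, which plastids transcribe as 1 long RNA. Their signals in WT and transWT were 3939 and 677 for rpl36, 1029 and 287 for rpl14, 9792 and 4569 for rpl22, and 4325 and 1845 for rpoA. For all 4 the WT array was at least 2-fold above all 3 other arrays, and only rpl36 was lower past 2-fold in the mutant pair (592 and 177). Of the 7 genes of this cluster with a named probe set, the other 3 lay within 2-fold: rps19 (-0.50), rps3 (-0.35) and rpl16 (0.08). In the mutant pair rps19 (913 and 1902) and rpl16 (112 and 1057) were higher past 2-fold. Of the other 59 tested plastid genes 11 were higher and 0 lower. They included petL (339 and 926), petA (3180 and 6539) and petG (78.6 and 217, at least 2.48-fold) of the cytochrome b6f complex. The higher genes also held psbC, psbD and psbA of photosystem II, psaB and psaI of photosystem I, atpE of the ATP synthase, ccsA of cytochrome assembly, and rps4 of the ribosome (3535 and 9400). Among the NDH genes 0 of 9 tested passed 2-fold. The cluster was singled out after the values were seen. Of 6 tested mitochondrial genes ccb382 (218 and 568) and nad4 (170 and 343) were higher and 0 lower.

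**Figure D3:**
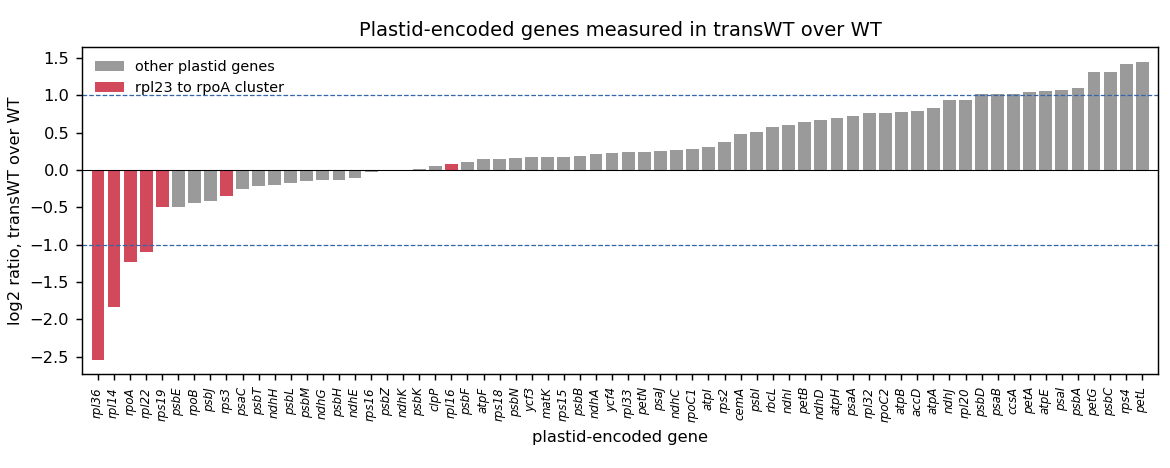
Log2 ratio of transWT over WT for the 66 tested plastid-encoded genes in order of their ratio, with dashed lines at 2-fold. Red bars are the 7 named genes of the cluster from rpl23 to rpoA. The 4 lowest values, from rpl36 at -2.54 to rpl22 at -1.10, are all of this cluster.

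In flavonoid synthesis 2 of 5 tested genes were higher and 1 lower. DFR, which makes the precursors of anthocyanins, read 85.6 in WT and 310 in transWT, at least 3.54-fold higher. It read 23.9 in emf2, below the floor, and 92.7 in rescued emf2, so its ratio there is only a bound (at least 1.06-fold). UGT78D2, which adds glucose to flavonols and anthocyanins, read 422 and 887 in the wild-type pair and 199.5 and 638 in the mutant pair. UF3GT, a glycosyltransferase of anthocyanins, read 42.7 and 140. UGT80B1, a sterol glucosyltransferase also named TRANSPARENT TESTA 15, was the lower gene (431 and 196). It lay within 2-fold with median scaling (-0.98), after cyclic loess (-0.99) and with a floor at the 60th percentile (-0.74). Among light regulators HYH, a bZIP partner of HY5, read 159 in WT and 460 in transWT, 2.89-fold, and 39.6 and 222 in the mutant pair. AFR, an F-box protein of phytochrome A signalling singled out after its value was seen, read 175 and 661, and 104 and 590 in the mutant pair.

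Cell wall genes differed by family member. Xyloglucan hydrolases cut and rejoin the tethers between cellulose fibrils, and of 8 tested 3 were higher and 2 lower in transWT. EXGT-A3 (XTH27) read 2034 in WT and 6266 in transWT, XTH33 read 88.1 and 221, and XTH16 read 435 and 957. XTH20, at 707 and 270, and XTH26, at 176 and 86.8, were the lower members, and both were lower in rescued emf2 than in emf2 as well. XTH26 was just past 2-fold here, as a bound. Of 14 tested expansins EXLA2 (87.9 and 269) was higher, and EXPA15 (807 and 299) and EXPB3 (3307 and 1514) were lower. EXLA2 was just above the floor in WT and lay at 0.05 with a floor at the 60th percentile. EXPB3 lay at -0.97 with median scaling. EXPA15 and EXPB3 did not differ by 2-fold in the mutant pair, where EXPA15 read 242 and 233 and EXPB3 432 and 468. EXO, a brassinosteroid-induced gene of leaf growth, read 1943 in WT and 9827 in transWT, 5.06-fold higher, and 2379 and 9412 in the mutant pair. THE1, a receptor kinase that senses cell wall damage, read 542 and 1318, and 483 and 1183 in the mutant pair. The endoglucanases GH9C2 (3917 and 1112) and GH9B8 (595 and 220), picked by their values, were lower. On the mutant arrays GH9C2 read 499 and 500, and GH9B8 130 and 156, below both arrays of the wild-type pair.

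Most cytoskeleton genes past 2-fold were lower in transWT. Of 21 tested tubulin and microtubule genes 4 were lower and 1 higher, with a median log2 ratio of -0.40. The lower members were the beta-tubulins TUB1 (1220 and 526) and TUB5 (4064 and 1875) and the calmodulin-binding microtubule proteins IQD31 (1205 and 525) and IQD30 (621 and 298). SP1L4, of the SPIRAL1-like family, was higher (149 and 379). With median scaling 2 of these genes were lower and 1 higher, and TUB5 lay at -0.96. Of the lower genes TUB1 kept its direction past 2-fold in the mutant pair (1991 and 667). WLIM1 (2786 and 1218) and WLIM2a (1894 and 636), which bundle actin filaments and were picked by their values, were also lower. Of 5 tested cell division genes PRL, the replication helicase subunit MCM7, was lower (585 and 217), and the Aurora kinases AUR1, AUR2 and AUR3 and the anaphase-promoting complex subunit HBT lay within 2-fold. The list median of -0.12 changed sign after quantile normalization, cyclic loess and median scaling. POLA3, a DNA primase subunit (458 and 154), NRPA1, the largest subunit of RNA polymerase I (263 and 101), and CHR17, a chromatin remodeller (428 and 182), were lower and were named after their values were seen. None of the 7 tested histone genes passed 2-fold, and HTB1, HTB2 and HTB4 of histone H2B had log2 ratios between -0.89 and -0.76.

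Most named genes of the flowering list were below the floor on both arrays. The flowering regulators FLC and FT had no probe set named here and were not assessed. Of 48 named genes of the flowering list, which holds many AGAMOUS-like genes, 10 were tested, GI was lower and 0 were higher. AGL16, a repressor of flowering, read 195 in WT and 99.9 in transWT, a log2 ratio of -0.97 that stays short of 2-fold. The flowering repressors SNZ and SMZ had log2 ratios of -0.90 and 0.02. Among Polycomb and trithorax genes ULT1 was the only one tested, within 2-fold at 0.33. Of 13 tested bZIP genes 3 were higher, HYH, BZIP17 (96.5 and 211) and BZIP61 (349 and 729), and 0 lower. BHLH101, a factor of the iron deficiency response, read 108 in WT and 429 in transWT, but 1.2 and 43.3 in emf2 and rescued emf2, both under the floor. WRKY22, a factor of immune signalling, read 373 and 859, and 156 and 597 in the mutant pair.

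Stress, detoxification and defence genes were mostly within 2-fold. Fes1B, a nucleotide exchange factor of Hsp70, read 1039 in WT and 199.6 in transWT, 5.21-fold lower, and 194 and 239 on the mutant arrays, and it was the only 1 of 5 tested chaperone genes past 2-fold. Of 17 tested oxidative stress genes 2 peroxidases were lower, AT5G66390 (1738 and 796) and PRXR1 (11900.2 and 5868), and 0 were higher. PRXR1, with a log2 ratio of -1.02, lay just past the 2-fold limit. With median scaling AT5G66390 (-0.97) and PRXR1 (-0.86) lay within 2-fold, and the list had 1 gene higher and 0 lower. Quantile normalization and cyclic loess each gave 1 higher and 2 lower. GSTU26, a glutathione transferase, read 1087 and 453 in the wild-type pair and 1894 and 510.2 in the mutant pair, and the other 10 tested members of its family were within 2-fold. Of 8 tested defence genes THI2.2, a thionin, was higher (1605 and 4169) and PDF2.1, a defensin-like peptide, was lower (394 and 118). Both kept their direction past 2-fold in the mutant pair, with 903 and 5252 for THI2.2 and 814 and 220.2 for PDF2.1. Of 32 tested UDP-glycosyltransferases 2 were higher and 3 lower, and of 9 tested cytochromes P450 CYP71B26 alone was lower (1472 and 325).

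BGLU44, a mannose-cleaving beta-glucosidase, read 4597 in WT and 529.7 in transWT, 8.68-fold lower, and 5730 and 986 in the mutant pair. BGLU33 was the other one of 11 tested family members that was lower (294 and 93), and 0 were higher. TET9, a tetraspanin, read 56.7 in WT and 258 in transWT, at least 2.95-fold higher, whereas both mutant arrays were brighter, at 2138 and 1691. AT1G68570, a transporter of the NPF family, read 93.5 and 362, and 471 and 458 on the mutant arrays. ATL8, a RING-type ubiquitin ligase, read 252 and 636, and 322 and 808 in the mutant pair. ACT11, an actin listed among reference genes, read 209 and 462 (2.21-fold higher), while GAPC2 (14481 and 21203) and PEX4 (1148 and 1339) lay within 2-fold. Of the hormone lists, 0 of 6 tested auxin genes passed 2-fold, with a median log2 ratio of 0.44, and 0 of 4 tested gibberellin genes, with a median of -0.28, while 1 of 2 tested brassinosteroid genes, EXO, was higher. IAA29, a repressor of auxin response, read 237 and 152 and GID1A, a gibberellin receptor, 1165 and 854.

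Many of the largest ratios belonged to genes that the annotation used here names only by locus. AT1G65490 read 148 in WT and 2366 in transWT, 15.9-fold higher, and 1154 and 6039 in the mutant pair. AT1G64500 read 95 and 847.5, 8.92-fold higher, and AT3G50560 read 219 and 1822, 8.32-fold higher. AT1G26390 was below the floor without the transgene on both backgrounds, at 25.4 in WT and 9.5 in emf2, and read 551 in transWT and 443 in rescued emf2. On the lower side AT4G16146 read 1793 in WT and 138 in transWT (13-fold), AT1G20030 read 1277 and 103 (12.3-fold), and AT1G56300 read 2441 and 202 (12.1-fold). AT4G30650 read 4764 and 392, 12.2-fold lower, and 5419 and 666 in the mutant pair. AT1G11210 read 1178 and 36.4, at least 13.4-fold lower. All these loci were past 2-fold the same way in the mutant pair, but some other loci with large ratios were not. AT5G62360 (3713 in WT and 345 in transWT, 10.8-fold lower) and AT5G44440 (677 and 80.5) went past 2-fold the opposite way there. AT5G51440, at 157 in WT and 1095 in transWT, and AT2G28720, at 655 and 52.8, lay within 2-fold in the mutant pair. Among the nuclear chromosomes the share of tested genes called higher ran from 2.74% on chromosome 3 to 3.98% on chromosome 2, and the share called lower from 4.78% on chromosome 2 to 5.38% on chromosome 4.

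The mutant pair shares no array with the wild-type pair and differs by the same transgene and the same drug. It shows how often a difference recurred on these arrays. Array controls were offset the same way in both pairs. By their medians, poly-A controls were 2.38-fold and hybridization controls 1.32-fold brighter on rescued emf2 than on emf2. Of 556 probe sets higher in transWT and tested in both pairs, 271 were higher past 2-fold in the mutant pair too (48.7%, exact 95% binomial interval 44.5% to 53.0%). Of all 13631 probe sets tested in both pairs, 6.04% were higher in rescued emf2. Of 704 probe sets lower in transWT, 193 were also lower in rescued emf2 (27.4%, interval 24.1% to 30.9%), against 4.56% of all. The intervals cover counting error only, and probe sets on an array are not independent. Seen from the other side, 32.9% of the higher and 31.1% of the lower calls in the mutant pair were shared with the wild-type pair. Over 12145 probe sets whose signals all exceeded the floor, the log2 ratios of the pairs had a Pearson r of 0.52 and a Spearman rho of 0.48, a description across probe sets that share the arrays of each pair. The parts of the drug and of these array differences in what was shared were not tested.

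**Figure D4:**
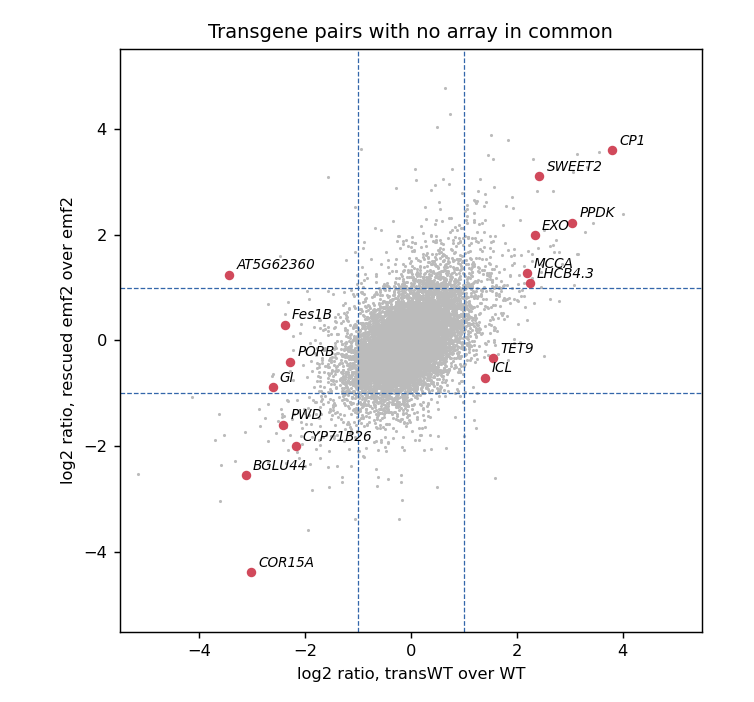
Log2 ratio of rescued emf2 over emf2 (vertical) against that of transWT over WT (horizontal) for 12145 probe sets whose signals all exceeded the floor, with dashed lines at 2-fold. CP1 lies at 3.80 and 3.60, and AT5G62360 at -3.43 and 1.24.

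The share kept was larger where the difference was larger. Of the probe sets 2 to 3-fold higher in transWT, 40.4% were kept (158 of 391), against 78.1% of those 4 to 8-fold higher (57 of 73) and all 18 of those at least 8-fold higher. On the lower side 19.8% of the 2 to 3-fold differences were kept (104 of 525), 59.1% of the 4 to 8-fold ones (39 of 66) and 15 of 17 at 8-fold and over. In part of the calls the WT array stood apart from all 3 others. Of 778 probe sets lower in transWT, 318 (40.9%) had the WT array at least 2-fold above all 3 others, and 50 (6.43%) had the transWT array at least 2-fold below all 3 others. Of 567 higher ones, 140 (24.7%) had WT at least 2-fold below all 3 others and 66 (11.6%) had transWT at least 2-fold above all 3. PORB, Fes1B, EXPA15, IQD31 and GH9C2 are among the genes where WT was brighter than all 3 other arrays by 2-fold or more. MCCA, IVD and PPDK are among those where WT was dimmer than all 3 by 2-fold or more.

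**Figure D5:**
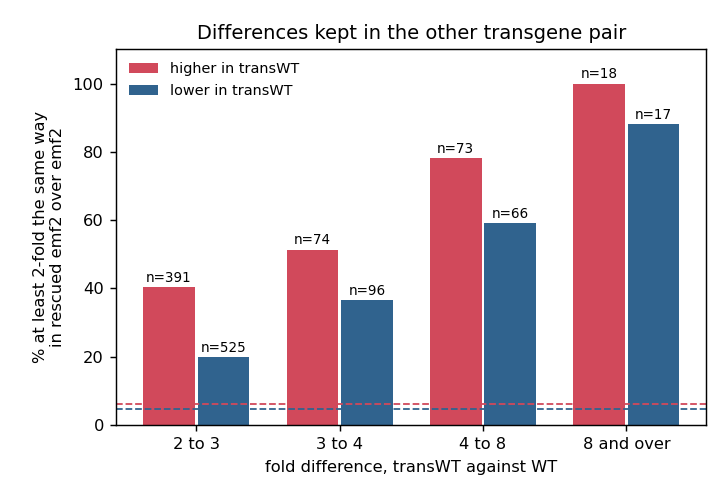
Share (percent) of the probe sets called in transWT over WT that were at least 2-fold the same way in rescued emf2 over emf2, by fold in transWT over WT, for higher and lower calls. The bars go from 40.4% to 100% on the higher side and from 19.8% to 88.2% on the lower side, and the dashed lines are the shares among all probe sets, 6.04% and 4.56%.

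The additive fit of transgene and background over the 4 arrays is the only test the design allows, and it has 1 residual degree of freedom. It treats the pairs as repeats of one transgene effect, in limma with a moderated variance and Benjamini-Hochberg adjustment. The pairs were not always alike. Among probe sets tested in both pairs, 8 called higher and 18 called lower in transWT went past 2-fold the opposite way in the mutant pair. The fit cannot tell a difference between backgrounds from error. Of 12145 probe sets 8 passed an adjusted p of 0.05 (0.0659%), 6 higher and 2 lower with the transgene, and 2544 had an unadjusted p under 0.05. CP1 (log2 3.70, limma adjusted p = 0.0284) and AT3G50560 (3.12, limma adjusted p = 0.0284) were the highest named genes. AT2G41250, at 265 in WT and 1697 in transWT, was also higher (2.75, limma adjusted p = 0.0394). AT4G30650 (-3.31, limma adjusted p = 0.0284) and BGLU44 (-2.83, limma adjusted p = 0.0468) were lower. All 5 differed the same way in both pairs. With cyclic loess the fit called 5 probe sets higher and 0 lower, so that AT4G30650 and BGLU44 were no longer called, and 2245 had an unadjusted p under 0.05. The count was 405 with median scaling and 0 when the fit was limited to signals above the 60th percentile, so it depends on the processing.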

How the data were processed

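Whole-seedling RNA of 4 groups, 1 array each, was hybridized to Affymetrix arrays of 22810 probe sets. The authors deposited MAS5 signal intensity values on a linear scale, per the submitters' processing notes, scaled to a common trimmed mean of about 500.05 (2% trimmed). Scanner files were not used here. The deposited intensities were rescaled to the same trimmed mean, values under a floor of 87.6 (the 40th percentile over the 4 arrays) were set to it, and log2 ratios of transWT over WT were taken. A probe set was tested where either array was above the floor and called at 2-fold.

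With 1 array a group no replicate was available, and depth is not a property of arrays. The additive fit used limma 3.58.1 in R 4.3.3 with a variance trend, on probe sets whose 4 signals all exceeded the floor. It was also run on simulated data that followed its own assumptions, with the same transgene effect in both backgrounds. That run cannot show how the fit does where the pairs differ. Other steps used Python 3.11.15, pandas 2.3.3, numpy 2.4.6 and scipy 1.17.1. Of the probe sets, 13513 were annotated with 1 gene, 503 with several and 8794 were not listed. Through RefSeq names of TAIR10.1, 13436 were matched, and the brightest probe set was kept for each of 13355 genes.

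The comparison, its gene lists and its tests were chosen with earlier results of these data known. Named genes were, each way, the largest ratios and bounds, the genes past 2-fold the same way or opposite ways in both pairs, and up to 4 called members of each list. Genes said to be singled out were added after their values were seen. Other scalings, floors, filters and fold thresholds were tried as alternatives. The planned promoter motif step was not run, as no sequence was used here.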

Additional observations from a re-analysis of the deposited data

Results flagged for a closer look

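Several named genes were at least 2-fold different in both pairs of arrays but in opposite directions, and for each of them the difference was not tested. With 1 array a group, either array of a pair can carry such a value.

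Higher in transWT than in WT and lower in rescued emf2 than in emf2 were AT3G02480, scpl31 and AT2G19970. AT3G02480 had log2 ratios of at least 1.43 and of -2.19, and read 37.5 in WT and 236 in transWT, against 947 in emf2 and 208 with the rescue. The carboxypeptidase-like gene scpl31 had bounds of 1.04 and -2.32, each with the dimmer array below the floor, and AT2G19970 had 1.01 and -1.81.

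Lower in transWT and higher in rescued emf2 were AT5G62360, AT5G44440, AT1G51090, AT5G16030, AT5G17910 and AT3G46490. AT5G62360, above the floor on all 4 arrays, had log2 ratios of -3.43 and 1.24. It read 3713 in WT and between 312 and 737 on the other 3 arrays. The other 5 genes each had at least 1 array below the floor, so that some of their ratios are bounds and true sizes may be larger. AT5G44440 had bounds of -2.95 and 1.34, and AT1G51090 bounds of -2.01 and 1.59. AT5G16030 had -1.88 and a bound of 2.0, AT3G46490 had -1.16 and a bound of 1.07, and AT5G17910 had a bound of -1.21 and 1.08.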

How the results depend on the processing

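No paired analysis was possible because each group has 1 array and no replicate numbers, beyond the additive fit, which takes each background as a block of 2 arrays. Leaving out an array would leave its group empty. Of 108 named genes past 2-fold, 101 stayed past it with median scaling, 107 with quantile normalization or cyclic loess, and 81 of 98 with a floor at the 60th percentile. Genes no longer past 2-fold with that floor included EXLA2, BGLU33, HYH, SP1L4, PDF2.1, BHLH101, AT1G68570 and nad4. None of the named genes reversed under these settings or the other alternatives.

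Calls higher and lower were 567 and 778, and 36.8% of them were kept in the mutant pair. A floor at the 25th percentile gave 895 higher and 32.4% kept, and one at the 60th gave 357, 397 and 39.8%. No floor with a pseudocount of 1 gave 2717, 2104 and 31.4%. A 1.5-fold threshold gave 1599, 2370 and 42.6%, and a 3-fold one 167 and 196. The additive fit called 8 probe sets, 405 with median scaling, 5 with cyclic loess, 484 at an adjusted p of 0.10, and 0 with limma above the 60th percentile, where 1711 had an unadjusted p under 0.05.

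List medians (log2) moved mostly with the floor. With the 25th percentile they were 0.65 for senescence, 1.07 for anthocyanin and 0.017 for flowering time. With the 60th they were -1.19 for cold, 0.12 for anthocyanin, -0.47 for lignin, -0.81 for cell division, -0.76 for histones, -0.12 for beta-glucosidases, -0.018 for root markers and 0.77 for mitochondrial genes. With no floor they were 0.64 for senescence, 0.12 for expansins, 0.59 for lignin, 0.58 for defence, -0.79 for cell division, 0.33 for flowering time and 0.33 for tetraspanins. Above the floor on both arrays they were -0.19 for senescence, -0.027 for anthocyanin, -0.46 for cell division, -0.76 for histones, -0.12 for beta-glucosidases and 0.75 for mitochondrial genes. Quantile normalization gave -0.024 for the light-harvesting list. The cause was not tested. Dim genes have only bounds, 84 of the higher and 111 of the lower calls.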
